A study of Homo sapiens with 9 samples.

Results

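The baseline transcriptome of untreated HepG2 cells was described. HepG2 is an established line grown from a human liver tumour, and it secretes many plasma proteins. The 3 arrays labelled as untreated HepG2 were used, of 9 in the series. The other 6 arrays, of cells given recombinant SPARC, a secreted matrix-binding glycoprotein, were not used here. Biotin-labelled total RNA was measured on 1-colour arrays. The series collected RNA 24 h after treatment, and the labels record no agent and no genetic change for the untreated cells. The labels do not say whether the replicates came from separate cultures, so each SD measures the spread between these samples only, which may be technical.

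Each of 17687 genes was ranked by its mean log2 signal over the 3 arrays, and its percentile gives its place among them, with 100 at the top. A gene is called high here when it lay in the top 10% on all 3 arrays, and low when it lay in the bottom 25% on all 3. Of all genes, 1413 were high (7.99%) and 3257 were low (18.4%). On replicates 1 and 3 alone 1685 genes were high (9.53%) and 3969 were low (22.4%). Probes differ in how strongly they bind, so a percentile is a place in the distribution of signals and not an amount of RNA. The deposited table carries no detection calls, so low means a low signal and not absence. With 1 group there is no contrast to test, and all values are descriptive.

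Hepatocytes export most proteins of blood plasma, clear drugs and hormones through oxidising, conjugating and transport proteins, and keep blood glucose and ammonia in range. A small network of transcription factors, among them the HNF1, HNF4, FOXA and CEBP families, keeps these genes on. Fetal liver cells share the secretory genes and add oncofetal genes such as AFP, which is largely silenced after birth and often returns in liver cancer.

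Replicate 2 stood apart from the other arrays. Across genes, Pearson's r was 0.991 between replicates 1 and 3, 0.900 between replicates 1 and 2 and 0.892 between replicates 2 and 3. These are correlations over genes, which are not independent replicates. The SD of the log2 signals was 1.98, 1.64 and 1.99 on replicates 1, 2 and 3, at medians of 5.60, 5.62 and 5.56. The range of signals was therefore narrower on replicate 2. More than 1 log2 unit separated replicates 1 and 3 for 40 genes, replicates 1 and 2 for 5023 and replicates 2 and 3 for 5455. Genes high on replicates 1 and 3 had a median difference of -0.73 log2 units on replicate 2 from the mean of the other arrays. For genes low on replicates 1 and 3 this difference was 0.38. All 1413 genes that were high on 3 arrays, and all 3257 that were low, were by construction also so without replicate 2. A gene's percentile is given with and without replicate 2 where the values differ by 5 points or more, and the cause of its deviation was not tested.

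**Figure D1:**
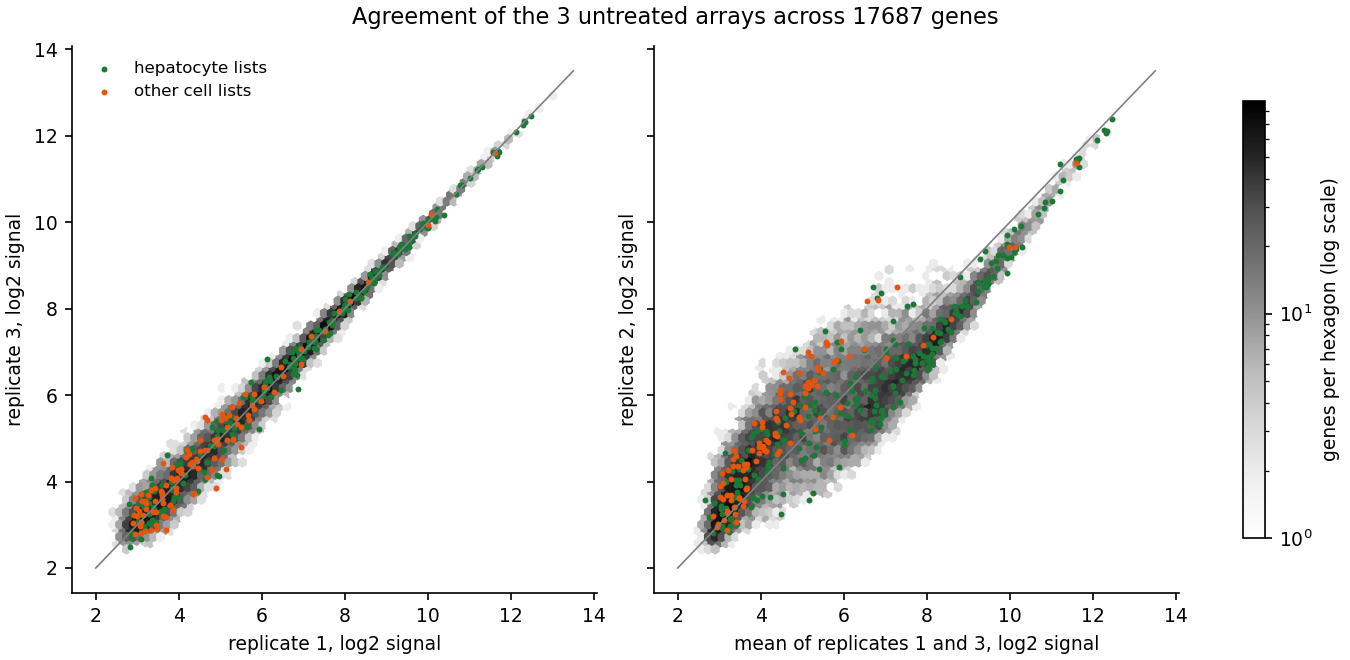
Log2 signals of 17687 genes on replicate 3 against replicate 1 (left) and on replicate 2 against the mean of replicates 1 and 3 (right). Grey hexagons count genes on a log scale, green points are members of hepatocyte lists, orange points are members of lists of other cell types, and the line marks equal signals. The left cloud is narrow (r = 0.991), whereas the right cloud splits in its middle into a part above and a part below the line.

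The split in the middle of the range differed between kinds of gene. Of 10647 genes with a mean signal between 4 and 8 on replicates 1 and 3, 3080 (28.9%) were more than 0.5 log2 units higher on replicate 2. A further 4207 (39.5%) were more than 0.5 lower, and 3360 (31.6%) lay within 0.5. Among 63 such genes on lists of other cell types (endothelium, fibroblasts, leukocytes, neurons, muscle, intestine and epidermis), 50 were higher by that margin and 4 were lower. Among 15 such genes of DNA replication, 0 were higher and 14 were lower. This did not hold for every dim list: of 8 such cytochromes P450, 6 lay within 0.5. The plots of the 3 arrays against each other show most orange points (91 of 110) above the line and most green points (160 of 237) below it. Of all 17687 genes, 8248 lay above that line and 9437 below it.

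The label fitted its markers. ALB, which encodes albumin, the main plasma protein, had signals of 12.30, 12.14 and 12.25 on replicates 1, 2 and 3. It ranked 9 among all genes with all arrays and 9 without replicate 2. APOA1, the chief apolipoprotein of high-density particles, had signals of 10.22, 9.90 and 10.30 and stood at the 98.6 percentile. AFP, alpha-fetoprotein, the fetal counterpart of albumin and a serum marker of liver cancer, had signals of 9.04, 8.16 and 8.93 (94.0 percentile, 93.9 without replicate 2). All 3 markers were high on every array, with replicate 2 the lowest each time.

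The brightest signal of all came from the probe set of MIR4485, a microRNA gene, at 13.07, 12.92 and 12.97. Its mature form, matched by gene identifier in RefSeq at chr11:10508277-10508296 on the minus strand of GRCh38.p14, is shown because it heads the ranking, with its seed (bases 2 to 8) in capitals.
hsa-miR-4485-3p: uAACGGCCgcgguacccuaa
A probe set for a microRNA gene can also detect longer or identical RNA, so the signal is not a level of the mature form. Of 15 genes with a MIR symbol, 1 was high (6.67%) and 2 were low (13.3%), near the 7.99% and 18.4% of all genes. MIR4485 was the member that was high.

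The 30 brightest genes joined secreted liver products to the basic machinery of growing cells. APOH (beta-2-glycoprotein I, which binds phospholipids) ranked 5, IGF2 (a growth factor) 6, APOA2 (the second protein of high-density lipoprotein) 7 and SERPINA1 (alpha-1-antitrypsin) 8. Signals of APOH were 12.47, 12.38 and 12.46, and those of SERPINA1 were 12.33, 12.07 and 12.32. IGF2 gave 12.45, 12.18 and 12.50. Replicate 2 was again the lowest of the arrays for these genes. Ribosomal proteins made up 11 of the 30, and tubulin (TUBA1B, TUBA1C), actin (ACTG1), elongation factor EEF1A1, ferritin light chain FTL, the chaperone HSP90AB1 and keratin KRT8 were also among them. Without replicate 2, 29 of the 30 stayed in the top 30. The order within it is loose: only 2 of 29 neighbouring pairs differed by more than the larger SD of the pair. Tubulin, histone (H2AC14, H2BC14) and ribosomal genes have near-identical copies, so the signal of a single member is uncertain.

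**Figure D2:**
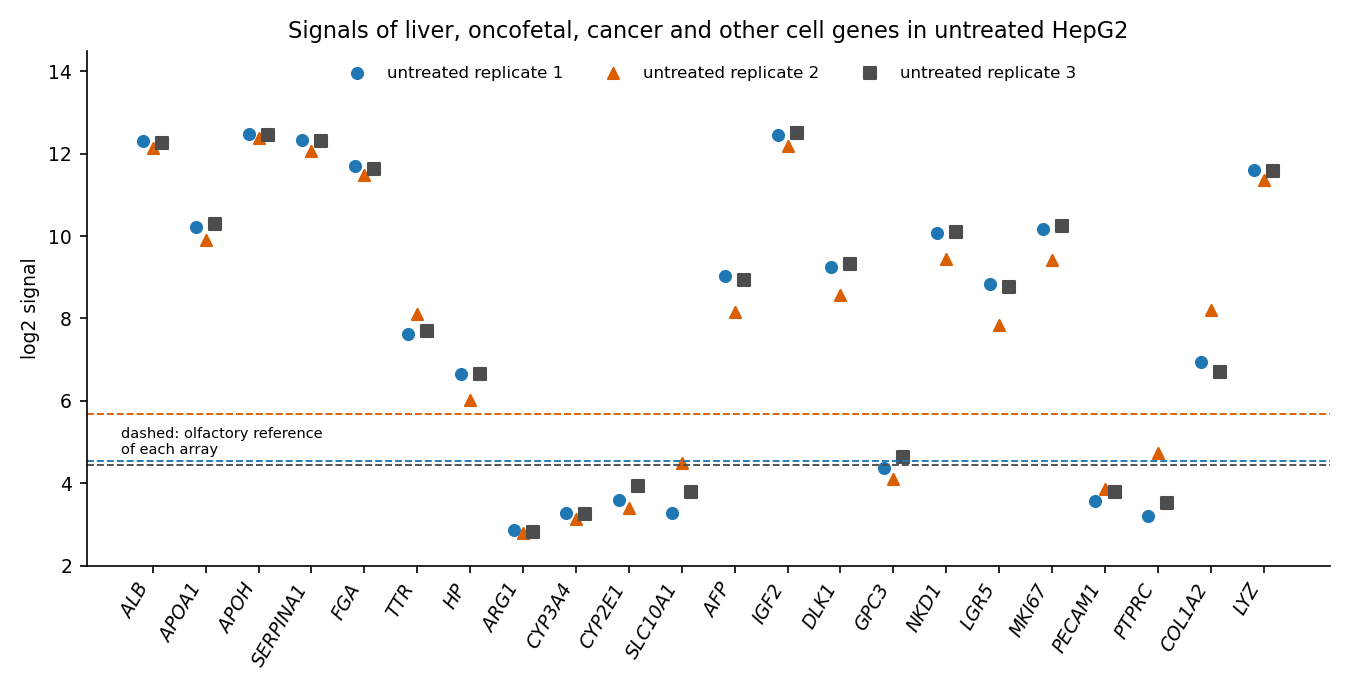
Log2 signals of 22 genes on the 3 untreated arrays, with the olfactory reference of each array as a dashed line in the colour of that array. ALB, APOH, SERPINA1 and IGF2 lie above 12 on every array, ARG1 and CYP3A4 lie near 3, and replicate 2 (triangles) is the lowest array for most bright genes and the highest for TTR, SLC10A1, PECAM1, PTPRC and COL1A2.

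Genes for plasma carriers held the highest place of any hepatocyte group. Of 18 measured, 10 were high and 1 was low, with a median percentile of 97.1 with or without replicate 2. TF (transferrin, the iron carrier) stood at 11.29, 10.97 and 11.28, AHSG (fetuin-A, an inhibitor of mineral deposition) at 11.67, 11.42 and 11.54, and RBP4 (the retinol carrier) at 11.68, 11.28 and 11.65. These lay in a narrow band on all arrays. TTR, transthyretin, a carrier of thyroid hormone, was far lower than its partner RBP4 in rank, at 7.62, 8.11 and 7.70 (86.1 percentile, 80.9 without replicate 2). HP (haptoglobin, which binds free haemoglobin) reached the 65.1 percentile, and CP (ceruloplasmin, the copper-carrying oxidase) only the 21.9 percentile (29.3 without replicate 2). AFM, afamin, a vitamin E-binding relative of albumin, was the low member at 2.84, 3.19 and 2.69. HPX (hemopexin, the haem carrier) cannot be placed, since its signal was 4.84 and 4.83 on replicates 1 and 3 but 7.06 on replicate 2.

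Apolipoproteins came next: 9 of 16 were high and 1 was low, at a median percentile of 95.2. APOB, the structural protein of low-density lipoprotein, gave 11.20, 11.34 and 11.22, and APOE, the ligand for remnant uptake, 11.19, 10.72 and 11.20. APOC3, an inhibitor of lipoprotein lipase, stood at the 99.3 percentile. MTTP, which loads lipid onto APOB, was somewhat below at 8.35, 7.75 and 8.29. LPA, the gene of apolipoprotein(a), was the low member at 3.62, 3.75 and 3.25. APOA4 and APOC4, at the 62.5 and 79.2 percentiles, dropped to 54.9 and 68.4 without replicate 2.

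Of 22 clotting genes, 7 were high (31.8%) and 4 were low (18.2%), with a median percentile of 73.9. The share of low members was close to the 18.4% of all genes. The fibrinogen chains were all high: FGA at 11.70, 11.49 and 11.63, FGB at 9.54, 8.76 and 9.67, and FGG at 10.39, 9.42 and 10.17. Protein C (PROC) and heparin cofactor II (SERPIND1), which both restrain clotting, were high as well. Prothrombin (F2) stood at the 88.1 percentile. The low members were F9 (clotting factor IX, 3.19, 3.44 and 2.91), F13B (the carrier subunit of factor XIII), KLKB1 (prekallikrein) and PLG (plasminogen, the precursor of the clot-dissolving enzyme, 3.28, 3.92 and 3.51). Their signals lay in the range of olfactory receptor genes, a family with little known role in liver, of which 266 of 349 were low.

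Complement and acute phase genes also had members at both ends of the distribution. In complement, 4 of 20 were high (C3, the hub of the cascade, at 11.01, 10.48 and 11.03, with C2, CFI and VTN) and 4 were low (C1R, C6, C9 and CFHR2). Among acute phase genes 4 of 13 were high. These were ITIH2, a carrier of hyaluronan, HAMP, the iron hormone hepcidin, SERPINA3 (alpha-1-antichymotrypsin) and FGL1, a fibrinogen-like protein. HAMP gave 10.19, 9.38 and 10.11. CRP (C-reactive protein) at 3.58, 3.67 and 3.32 and LBP (which binds bacterial lipopolysaccharide) at 2.82, 3.57 and 2.49 were low. The shares of low members, 4 of 20 in complement and 2 of 13 in the acute phase list, lay near the 18.4% of all genes. The shares of high members, 4 of 20 and 4 of 13, lay above the 7.99% of all genes.

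Liver transcription factors were mostly in the upper part of the distribution, but few were among its brightest genes. Of 19, 4 were high and 0 were low, with a median percentile of 78.1 (75.0 without replicate 2). PROX1, a homeobox factor of early hepatoblasts, gave 9.99, 8.83 and 9.88. FOXA1, a factor that opens liver chromatin, gave 9.32, 8.57 and 9.39. ONECUT1 (HNF6) and NR0B2 (the bile acid-induced repressor SHP) were the other high members. CEBPA stood at the 63.7 percentile and FOXA2 at 60.7. NR1I3, the drug-sensing receptor CAR, was the lowest at 4.51, 4.96 and 4.63 (33.9 percentile).

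Drug-metabolising cytochromes P450 were the hepatocyte group with the lowest place. None of the 16 measured was high, against 7.99% of all genes, and 6 were low, with a median percentile of 21.8 (25.6 without replicate 2). CYP3A4, the main drug oxidase of adult liver, gave 3.27, 3.13 and 3.24, and CYP2E1, which oxidises ethanol, 3.59, 3.40 and 3.93. Also low were CYP2A6, CYP2C8, CYP1B1 and CYP3A43. CYP2J2, an epoxygenase of polyunsaturated fatty acids, was the brightest at 6.56, 6.32 and 6.79, only the 67.4 percentile. Members of the P450 family share sequence, so single values carry the uncertainty of cross-binding probes.

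Conjugation and transport genes included members at both ends. Among conjugating enzymes 3 of 19 were high, MGST1 (10.16, 9.84 and 10.02), SULT2A1 and TPMT, and 3 were low, UGT2B15, UGT2B17 and NAT2. The low members made up 15.8% of the list, against 18.4% of all genes. Of 22 transporters and receptors, 2 were high (9.09%) and 4 were low (18.2%), close to the 7.99% and 18.4% of all genes. ABCC2, which exports conjugates into bile, gave 10.12, 9.31 and 10.08. ASGR2, a subunit of the asialoglycoprotein receptor, had a mean of 9.75 ± 0.48 (SD, n = 3). Uptake carriers for bile acids and drugs were at the other end: SLCO1B1 at 3.46, 2.97 and 3.06 and SLCO1B3 at 3.08, 3.15 and 3.47. ABCB11, the bile salt export pump, stood at 3.09, 3.51 and 2.67. SLC10A1, the sodium-dependent bile acid carrier and receptor of hepatitis B virus, was at 3.28, 4.50 and 3.79, not low on every array because of replicate 2. In the bile acid list, FGFR4, the receptor for the gut hormone FGF19, was the 1 high member of 14 (7.14%) at 9.36, 9.34 and 9.43. Without replicate 2 there were 2, the other being CYP27A1, a sterol hydroxylase. CYP7A1, the rate-limiting enzyme of bile acid synthesis, lay at the 34.8 percentile (45.2 without replicate 2).

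Nitrogen metabolism was uneven. In the urea cycle, ARG1, the arginase of the last step, was among the dimmest genes of all at 2.87, 2.80 and 2.81 (0.865 percentile), and OTC (ornithine transcarbamylase) gave 3.41, 3.40 and 3.36. CPS1, the entry enzyme, was intermediate at 6.84, 5.43 and 6.46. ASS1, which joins citrulline to aspartate, reached the 83.3 percentile, and the mitochondrial aspartate carrier SLC25A13 was the 1 high member of 7. Of 24 genes of amino acid breakdown, 4 were high (16.7%) and 4 were low (16.7%), against 7.99% and 18.4% of all genes. HPD and HGD, consecutive enzymes of tyrosine breakdown, were high (HPD at 10.68, 10.20 and 10.66), whereas TAT, the first enzyme of the same pathway, was low at 3.28, 4.30 and 3.65. MAT1A, the methionine adenosyltransferase of adult liver, was high at 9.15, 8.15 and 9.23.

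Genes of glucose output and glycogen were intermediate, with a median percentile of 66.9. Of 17 members, 1 was high (TKFC, which phosphorylates dihydroxyacetone and glyceraldehyde) and 3 were low. These shares, 5.88% and 17.6%, were close to the 7.99% and 18.4% of all genes. PCK1, the cytosolic enzyme that commits carbon to glucose synthesis, gave 5.55, 6.53 and 5.26, and its mitochondrial form PCK2 7.30, 6.34 and 7.50. Low members were GYS2, the glycogen synthase of liver, and PPP1R3B and PPP1R3C, which target a phosphatase to glycogen. Iron handling had 6 of 16 members high, including TF, HAMP, FTL and the exporter SLC40A1, and 1 low (HJV, a co-receptor that drives hepcidin).

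Oncofetal genes were bright. Of 19, 9 were high and 1 was low, with a median percentile of 83.8 (81.0 without replicate 2). IGF2 led, followed by HMGA1, a chromatin protein of embryonic cells, with a mean of 10.93 ± 0.23 (SD, n = 3). EPCAM, an adhesion protein of hepatic progenitors, gave 10.23, 9.76 and 10.21. IGF2BP1, an RNA-binding protein of fetal tissue, gave 9.97, 9.50 and 9.93. DLK1 and PEG10, both imprinted genes active in fetal liver, stood at the 95.6 and 97.6 percentiles. GPC3, glypican-3, a surface marker widely used for hepatocellular carcinoma, was not high: its signals were 4.37, 4.11 and 4.63 (28.1 percentile, 33.9 without replicate 2). A single probe set stands behind this value, so a poorly binding one would look the same as a dim gene. SPINK1, a secreted trypsin inhibitor, was low at 3.84, 4.13 and 3.27. SALL4, a factor of embryonic stem cells, depended on replicate 2, with 7.32, 8.43 and 7.09.

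Progenitor and biliary genes gave 3 high members of 18 with all arrays and 6 without replicate 2, so that array decides this count. SPP1 (osteopontin), SOX9, a factor of bile duct and progenitor cells, and ANXA4 were high on all arrays. SOX9 gave 8.78, 8.19 and 8.89, and KRT19, a keratin of bile ducts, 8.50, 7.76 and 8.66. KIT, CFTR and THY1 were low, 16.7% of the list against 18.4% of all genes. The surface proteins PROM1 and CD44 lay at the 23.1 and 34.1 percentiles. The list's median percentile was 59.7, or 52.3 without replicate 2. Erythroid genes, carried by the blood-forming cells of fetal liver and not by hepatocytes, were dim, with a median percentile of 26.5. Of 15, 0 were high and 5 were low (33.3%), against 7.99% and 18.4% of all genes. At 7.99% few of 15 genes would be high in any case. HBB, beta-globin, gave 3.62, 5.12 and 3.83. All 15 were brighter on replicate 2 than on the mean of the others, against 8248 of all 17687 genes. HBA1 reached the 69.9 percentile (59.5 without replicate 2), and its near-identical copy HBA2 makes its value uncertain.

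**Figure D3:**
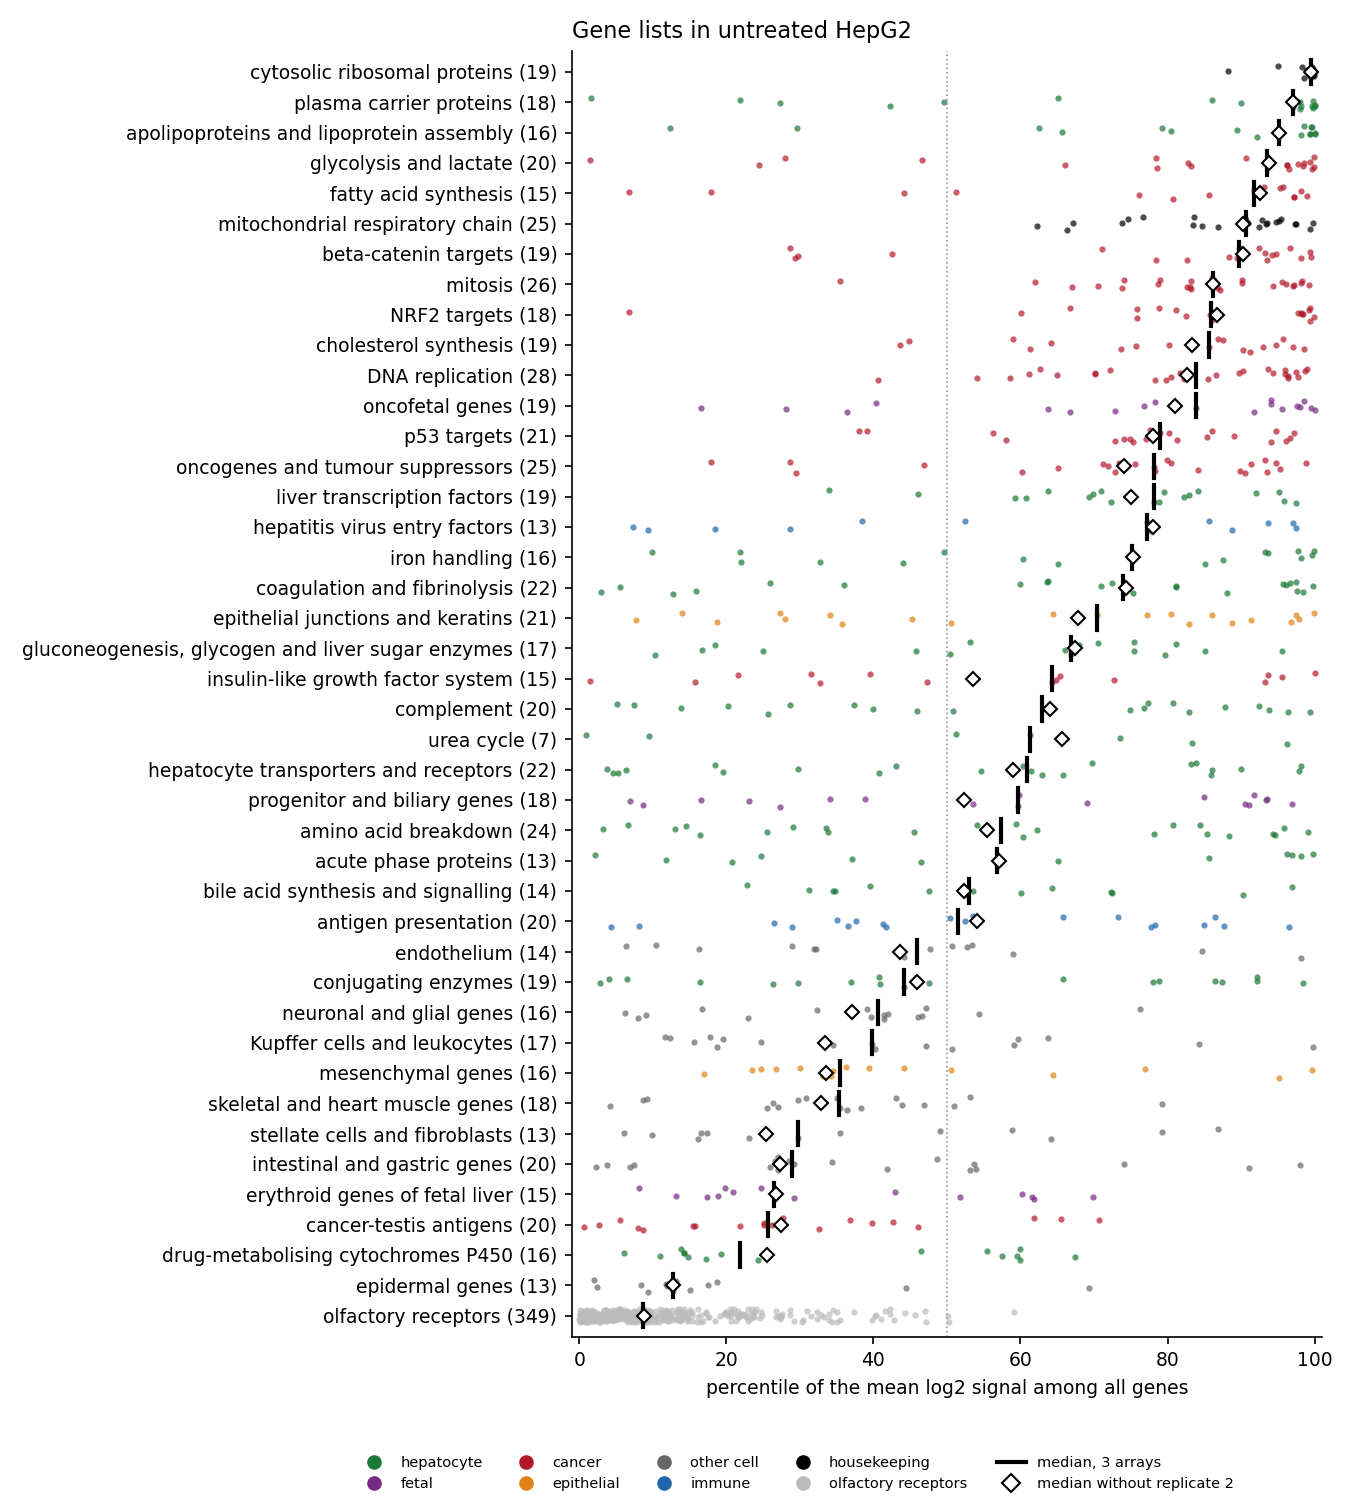
Percentile of the mean log2 signal of each measured member of 41 gene lists and of 349 olfactory receptor genes, with the number measured in brackets. Points are genes coloured by class, bars are list medians over 3 arrays, diamonds are medians without replicate 2 and the dotted line marks the median of all genes. Ribosomal proteins (99.5) and plasma carriers (97.1) lie at the top, and cytochromes P450 (21.8) and epidermal genes (12.7) at the bottom.

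Among cancer programmes, targets of beta-catenin, the transcriptional arm of Wnt signalling that is often mutated in liver cancer, were prominent. Of 19, 8 were high and 0 were low, with a median percentile of 89.7 (90.3 without replicate 2). DKK1, a secreted Wnt antagonist, gave 11.04, 10.67 and 11.03, NKD1, a feedback inhibitor, 10.07, 9.44 and 10.11, and BMP4, a growth factor, 10.87, 10.50 and 10.98. GLUL, glutamine synthetase, which marks cells around the central vein in adult liver, gave 9.58, 8.77 and 9.60. LGR5, a receptor of Wnt-enhancing R-spondins, was high as well at 8.83, 7.83 and 8.77. AXIN2, a widely used reporter of the pathway, stood at the 82.7 percentile. LEF1, DKK4, APCDD1 and REG3A stood between the 28.6 and 42.5 percentiles, so the list was not uniformly bright. CTNNB1 itself gave 9.33, 8.38 and 9.29.

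Most proliferation genes lay in the upper part of the distribution. In mitosis 8 of 26 and in DNA replication 10 of 28 members were high, and 0 were low in either list, with median percentiles of 86.2 and 83.8. MKI67, the antigen used to score cycling cells, gave 10.18, 9.42 and 10.25, and the mitotic kinase PLK1 10.63, 10.33 and 10.70. PCNA, the sliding clamp of DNA polymerase, gave 10.32, 9.79 and 10.35, and RRM1, the large subunit of ribonucleotide reductase, 10.51, 10.01 and 10.56. All 26 mitotic and all 28 replication genes were dimmer on replicate 2 than on the mean of the other arrays. Of all 17687 genes, 9437 were dimmer there. The dimmest were ECT2, which starts cytokinesis (35.4 percentile), and CCNE2, a cyclin of S phase entry (40.6 percentile, 49.3 without replicate 2).

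Metabolic genes of growing tumours ranked high with some exceptions. In glycolysis 10 of 20 were high and 1 was low, with a median percentile of 93.5. GAPDH gave 12.02, 11.82 and 11.95 and ENO1 11.99, 11.79 and 11.94, both in the top 30. Glucose carriers SLC2A1 and SLC2A3 were high, and LDHA, which makes lactate, gave 10.91, 10.46 and 10.91. LDHB, the other lactate dehydrogenase subunit, was at 3.78, 4.29 and 4.46. Hexokinases parted likewise: HK2 lay at the 78.6 percentile, whereas HK1 was low, with a mean of 2.90 ± 0.29 (SD, n = 3). A single probe set stands behind each gene here, so a poorly binding one would look the same as a dim gene.

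Lipid synthesis was similarly placed. Of 15 fatty acid genes, 7 were high and 2 were low (median percentile 91.8), and of 19 cholesterol genes 5 were high and 0 were low (85.7). FASN, fatty acid synthase, gave 10.13, 9.24 and 10.20, and SCD, which desaturates its products, 10.57, 10.13 and 10.57. ME1, which supplies reducing power for this pathway, was low at 3.09, 3.70 and 2.95. MSMO1 and DHCR7, late enzymes of cholesterol synthesis, stood at the 98.5 and 94.7 percentiles. HMGCS1, an early enzyme, gave 6.94, 5.16 and 7.06.

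Stress-response targets were also in the upper range. Of 18 targets of NRF2, the regulator of antioxidant genes, 8 were high and 1 was low. NQO1, a quinone reductase, gave 10.99, 10.65 and 10.95, and the transcript of NRF2 itself, NFE2L2, gave 10.38, 9.90 and 10.37. The aldo-keto reductases AKR1C1, AKR1C2 and AKR1C3 were high too, but their probes can bind each other's transcripts. Of 21 p53 targets, 5 were high and 0 were low. MDM2, the ligase that destroys p53, gave 9.09, 8.54 and 8.94, and CDKN1A, the cell cycle inhibitor p21, 7.86, 6.40 and 7.80.

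Among 25 oncogenes and tumour suppressors 4 were high and 1 was low. The high members were CTNNB1, CCND1, MDM2 and NFE2L2, and 7 were high when replicate 2 was left out, so that array decides the count. MYC, which drives growth, gave 9.01, 7.61 and 9.16 and was high only without replicate 2. CDKN2A, which encodes the inhibitors p16 and p14ARF, was low at 3.67, 4.22 and 3.57. EGFR lay at the 28.6 percentile. In the insulin-like growth factor system, IGF2 and its receptors IGF1R (9.33, 8.37 and 9.37) and IGF2R (8.93, 7.95 and 9.11) were high with IGFBP1. The list's median percentile was 64.3, or 53.6 without replicate 2. IRS4 and IRS2, adaptors of insulin signalling, were low, and IGF1 gave 6.16, 7.53 and 5.50. Cancer-testis antigens, genes of the germ line that some tumours switch on, had a median percentile of 25.7. Of 20, 0 were high and 7 were low (35.0%), against 7.99% and 18.4% of all genes. MAGEA3, the brightest, stood at the 70.7 percentile (64.3 without replicate 2), and its near-identical copy MAGEA6 makes it uncertain.

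Of 21 genes of epithelial junctions and keratins, 4 were high and 2 were low, against 7.99% and 18.4% of all genes. KRT8 (11.84, 11.60 and 11.83) and KRT18 (9.99, 9.25 and 10.02), the keratin pair of hepatocytes, were high, as were the tight junction protein CLDN1 and the desmosomal plakin DSP. The low members were CDH17, a cadherin of the gut, and ESRP1, an epithelial splicing factor (7.77 percentile). CDH1, E-cadherin, was dim at 4.25, 3.27 and 4.08 (18.8 percentile, 28.3 without replicate 2). CDH2, N-cadherin, which hepatocytes also carry, gave 8.02, 6.64 and 7.97. Of 16 mesenchymal genes 2 were high, both secreted: FN1, fibronectin, a plasma protein of hepatocytes, at 11.43, 11.01 and 11.38, and TGFBI. VIM, vimentin, gave 4.78, 5.23 and 4.16. As a group the mesenchymal genes lay below the middle of the distribution, with a median percentile of 35.4 (33.5 without replicate 2). Their calls did not show this: 12.5% were high and 6.25% were low, against 7.99% and 18.4% of all genes.

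Markers of other cell types were dim as a class. Of 110 genes, 3 were high (2.73%) and 33 were low, against 7.99% and 18.4% of all genes, with a median percentile of 32.3 (31.7 without replicate 2). PECAM1 of endothelium gave 3.56, 3.86 and 3.79, PTPRC of leukocytes 3.20, 4.73 and 3.51, and CD3D of T cells 3.70, 4.06 and 2.89. The 3 high members were LYZ, ENG and ANPEP. LYZ, lysozyme, a secreted enzyme of myeloid and gut cells, gave 11.61, 11.37 and 11.59, the 99.8 percentile. ENG, endoglin, a co-receptor of the TGF-beta family, gave 10.07, 9.43 and 10.20, and ANPEP, an aminopeptidase that also lines bile canaliculi, had a mean of 9.79 ± 0.31 (SD, n = 3). Other members were bright without being high: ACTA2 of stellate cells and fibroblasts (86.9 percentile), CD68 of leukocytes (84.3) and ACTA1 of muscle (79.3). The endothelium list lay near all genes, with 1 of 14 high (7.14%) and 3 low (21.4%), at a median percentile of 45.9. Epidermal genes were the dimmest list, with 10 of 13 low. COL1A2 of fibroblasts gave 6.94, 8.20 and 6.71, and the list of stellate cells and fibroblasts moved from a median percentile of 29.8 to 25.4 without replicate 2. All but 1 of its 13 members were brighter on that array than on the mean of the others, against 8248 of all 17687 genes.

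**Figure D4:**
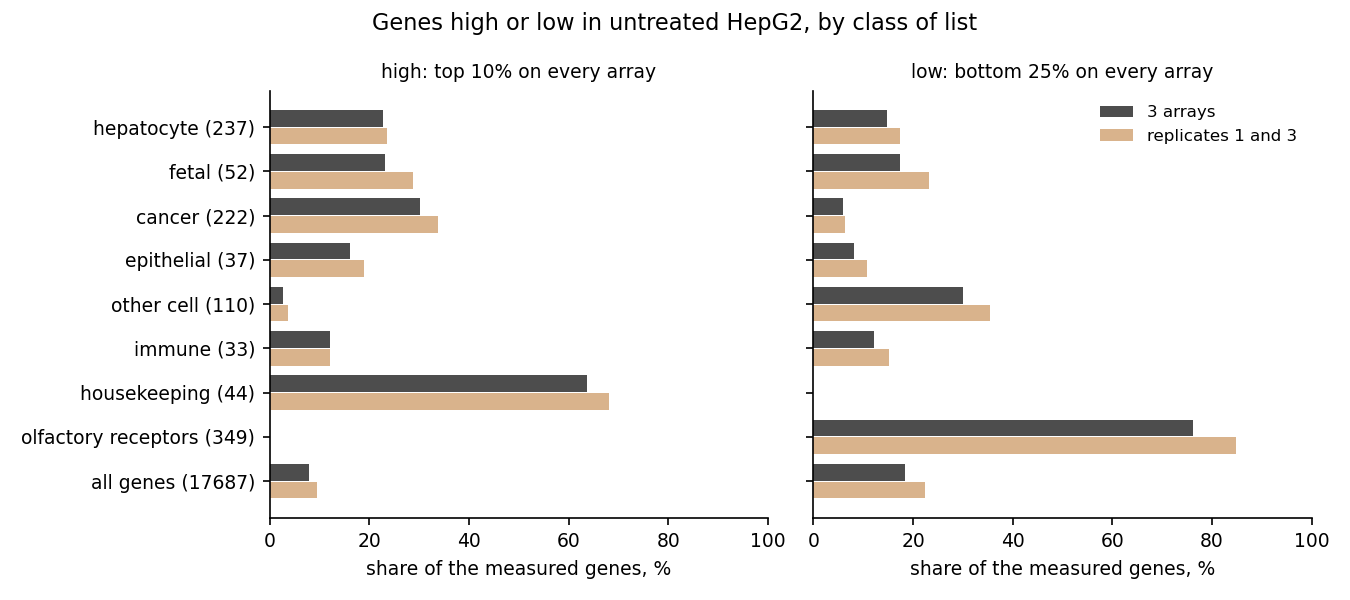
Share of measured genes that were high (left) or low (right) in each class of list, in the olfactory receptor family and in all genes, with the number measured in brackets. Dark bars use 3 arrays and light bars replicates 1 and 3. The cancer class has 30.2% high and 5.86% low genes, the hepatocyte class 22.8% and 14.8%, and of 110 genes of other cell types 3 were high and 33 low.

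Between the cancer and hepatocyte classes, the cancer lists had the larger share of bright genes and the smaller share of dim ones. Housekeeping lists (ribosomal proteins and respiratory chain) exceeded both, with 28 of 44 high (63.6%) and 0 low. Fetal lists were close to the hepatocyte lists, with 12 of 52 high (23.1%) and 9 low (17.3%). Of 222 cancer genes 67 were high (30.2%) and 13 were low (5.86%), at a median percentile of 80.9. Of 237 hepatocyte genes 54 were high (22.8%) and 35 were low (14.8%), at a median percentile of 65.1. Without replicate 2 the medians were 81.7 and 66.4. The quartiles lay further apart in the hepatocyte class, at the 32.7 and 88.1 percentiles, than in the cancer class, at 61.9 and 94.6. Both classes reached from near the bottom of the distribution to its top. The bar plot of these shares sets them beside all genes. Among the immune lists, B2M, the light chain of class I molecules, was the 1 high member of 20 in antigen presentation at 9.55, 8.66 and 9.65. That list had 2 low members. Its high and low shares both lay below the 7.99% and 18.4% of all genes, but these are small counts. CD274, the checkpoint ligand PD-L1, was low at 2.81, 3.40 and 3.14. Of 13 hepatitis virus entry factors 3 were high (SCARB1, CLDN1 and TFRC) and 2 were low (GPC5 and HAVCR1). The low share was 15.4%, against 18.4% of all genes.

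Above a reference set by the 95th percentile of the olfactory receptor genes on each array lay 8305 genes (47.0%) on all 3 arrays and 11341 (64.1%) on replicates 1 and 3. The reference was 4.54, 5.67 and 4.44 on replicates 1, 2 and 3, so replicate 2 set the count. It is an empirical mark and not a background call. Of the hepatocyte genes 138 of 237 lay above it on all arrays, of the cancer genes 172 of 222 and of the genes of other cell types 37 of 110. Symbols were also grouped by their leading letters, and some of the 238 groups are given here. Of 34 RPL symbols 27 were high and 1 was low, and of 34 RPS symbols 19 were high and 3 were low. Of 49 EIF genes (translation initiation) 21 were high. None of 51 CYP genes was high, and 14 were low (27.5%), against 7.99% and 18.4% of all genes. Zinc finger genes, with 492 ZNF symbols, had 3 high members (0.61%).

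Promoters of some liver genes, bright and low, are shown because HNF1 and HNF4 are textbook regulators of liver genes. Apart from ALB, the genes shown were picked because they hold a motif, so they are not typical. Of 549 list genes with a promoter, 14 held the HNF1 motif and 12 the HNF4 motif. Promoters were taken from RefSeq (GRCh38.p14), from 250 bases before to 50 after the start. A promoter was found for 14250 of the 17687 genes, 1195 high and 2610 low among them. The HNF1 motif was written TTAATNATT and the HNF4 motif CAAAGTCCA, each searched on both strands. The 180 bases upstream of the start are given 5′ to 3′ on the gene's strand, with the motif in capitals. ALB (chr4:73404107-73404286, plus strand) has no match in these letters, and the neighbouring AFP (chr4:73436041-73436220, plus) has an HNF1 match whose first base lies 131 bases before the start. APOH (chr17:66229416-66229595, minus) and FGA (chr4:154590743-154590922, minus) have HNF1 matches 137 and 56 bases before it, and AHSG (chr3:186612880-186613059, plus) an HNF4 match at 179. F13B (chr1:197067261-197067440, minus) and SLCO1B3 (chr12:20810525-20810704, plus) have HNF1 matches at 60 and 163 but low signals.
ALB: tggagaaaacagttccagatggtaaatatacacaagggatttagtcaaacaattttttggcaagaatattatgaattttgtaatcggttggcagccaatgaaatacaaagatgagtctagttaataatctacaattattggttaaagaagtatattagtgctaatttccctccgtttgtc
AFP: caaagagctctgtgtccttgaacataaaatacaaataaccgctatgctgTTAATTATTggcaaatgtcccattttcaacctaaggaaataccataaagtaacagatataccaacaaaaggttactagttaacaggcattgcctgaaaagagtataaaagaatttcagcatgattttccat
APOH: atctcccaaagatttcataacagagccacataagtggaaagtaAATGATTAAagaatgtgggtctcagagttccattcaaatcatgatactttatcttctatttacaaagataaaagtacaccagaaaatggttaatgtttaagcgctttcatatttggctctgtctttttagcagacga
FGA: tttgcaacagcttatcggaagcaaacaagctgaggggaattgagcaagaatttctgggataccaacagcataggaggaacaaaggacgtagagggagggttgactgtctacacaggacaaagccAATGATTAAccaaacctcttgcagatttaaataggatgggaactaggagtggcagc
AHSG: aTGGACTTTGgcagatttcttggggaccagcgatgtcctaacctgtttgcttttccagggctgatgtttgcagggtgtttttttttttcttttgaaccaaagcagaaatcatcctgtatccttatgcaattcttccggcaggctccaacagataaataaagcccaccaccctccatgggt
F13B: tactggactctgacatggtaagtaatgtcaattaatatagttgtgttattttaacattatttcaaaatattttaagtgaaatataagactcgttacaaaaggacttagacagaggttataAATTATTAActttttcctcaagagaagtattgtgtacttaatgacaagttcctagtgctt
SLCO1B3: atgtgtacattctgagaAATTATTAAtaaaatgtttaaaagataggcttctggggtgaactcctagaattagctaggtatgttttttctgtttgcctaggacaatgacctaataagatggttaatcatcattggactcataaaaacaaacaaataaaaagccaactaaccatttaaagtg

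Over all promoters, an exact match to the HNF1 letters did not go with a bright signal. Of 128 genes with the HNF1 motif, 10 were high and 45 were low. The motif was held by 0.898% of all promoters, 0.837% of high and 1.72% of low genes. Its fixed letters are all A or T, and the median GC content was 65.0% in promoters of high genes and 52.7% in low genes. The shares were not adjusted for this difference. Of 49 genes with the HNF4 motif, 7 were high and 8 were low (0.344% of all promoters, 0.586% of high, 0.307% of low). Hepatocyte genes held them more often than the average promoter, 9 of 179 for HNF1 (5.03%) and 8 for HNF4 (4.47%). Of 184 cancer genes 0 held either, but at the shares of all promoters few would. This was not particular to hepatocyte genes. The HNF1 motif was held by 2 of 27 epithelial (7.41%), 1 of 28 fetal (3.57%) and 1 of 27 immune genes (3.70%), all small counts. It was held by 1 of 77 genes of other cell types (1.30%) and 0 of 35 housekeeping genes. The HNF4 motif was as frequent among genes of other cell types, 4 of 77 (5.19%). Among genes with an HNF1 match, AFP, APOH and FGA were high, and F13B, PLG, SLCO1B3 and HAVCR1 were low. With HNF4, AHSG was high and CYP2A6, CYP2C8 and MUC13 were low. A match is an exact stretch of letters, so near matches were not counted, and it was not tested for binding.

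CpG content differed between bright and dim genes. The median CpG ratio (observed over expected) was 0.87 in promoters of high genes, 0.40 in low genes and 0.77 in all. The ETS motif CCGGAAGT was held by 9.54% of high and 1.34% of low genes, against 6.24% of all. The NRF1 motif GCGCATGCG was held by 3.60% and 1.19%, against 2.82%, and both contain the CpG dinucleotide. The TATA motif TATAAA was held by 17.2% of low, 8.95% of high and 9.41% of all promoters. Across 10 bins of signal its share was 18.6% in the dimmest, 4.33% in the ninth and 8.12% in the brightest. The median ratio was 0.28 in hepatocyte genes and 0.29 in the dim genes of other cell types, and 0.85 in cancer and 0.87 in housekeeping genes. TATA was held by 24.0% of hepatocyte genes and 23.4% of genes of other cell types. The plasma carriers, bright as they were, had a median ratio of 0.21, and 6 of their 13 matched promoters held the TATA motif.

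**Figure D5:**
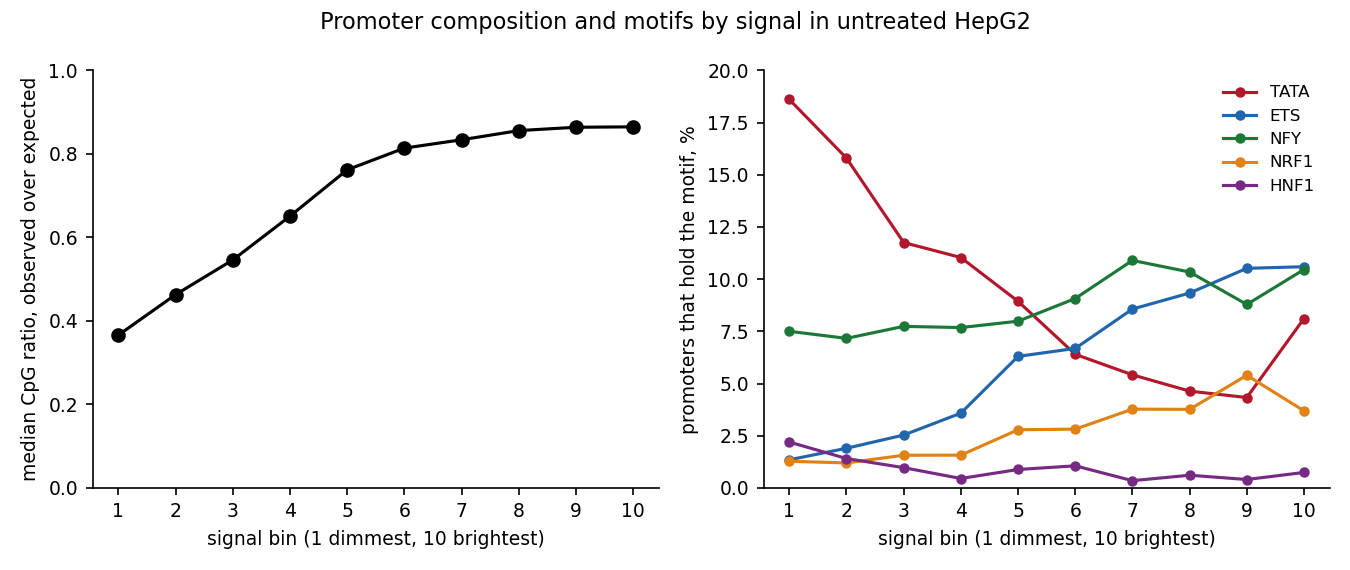
Median CpG ratio of promoters (left) and share of promoters that hold a motif (right) in 10 bins of mean signal over 14250 genes, from dimmest to brightest. The CpG ratio rises from 0.366 to 0.865, TATA falls from 18.6% to 4.33% in the ninth bin and is 8.12% in the brightest, and ETS rises from 1.35% to 10.6%.

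Few genes differed between the closely matching replicates 1 and 3. WDR72 had the largest difference, with 4.90 on replicate 1 and 3.38 on replicate 3. PRKX (4.01 and 5.40), DPF1 (5.43 and 4.11) and ATF3 (4.04 and 5.32) followed, ATF3 being a transcription factor quickly induced by stress. All of the 10 largest differences were in genes below the median signal. Neighbouring genes that were all high formed 2 runs of 4 measured genes. The first held LBR, ENAH, SRP9 and EPHX1, and the second C5orf15, VDAC1, SKP1 and PPP2CA. EPHX1, microsomal epoxide hydrolase, is a detoxifying enzyme of liver, and PPP2CA is the catalytic subunit of a protein phosphatase.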

How the data were processed

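The authors deposited 1 table with a log2 value per transcript cluster and array (log scale inferred from the values' range). The submitters' processing notes name R 3.0, and its normalization, background correction and filters are not given in the sources used. Only the 3 untreated arrays were read. The platform annotation gave 1 symbol to 17709 of 21448 clusters and none to 3739; all 17687 Entrez identifiers were found in RefSeq. The cluster with the highest mean was kept for each gene (20 genes had several). Ranks, percentiles, list counts and motif shares were computed with Python 3.11.15, pandas 2.3.3 and numpy 2.4.6. The ranking and the high and low calls were tested on simulated data. The simulated arrays had equal noise and at most a uniform narrowing of an array, so the test does not cover a deviation like that of replicate 2. The 41 lists held 840 genes, of which 724 were measured; the rest were not analysed here. Members and lists were chosen with earlier results of these data known. The genes named are the 30 brightest, list members, the 10 with the largest difference between replicates 1 and 3, and runs of 4 or more neighbouring high genes. The number of arrays limits the precision.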

Additional observations from a re-analysis of the deposited data

How the results depend on the processing

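With 5% at either end as the limits, 756 genes were high and 305 low, and with the top 20%, 2696 were high. Leaving out 1 array in turn gave 1427 to 1685 high genes, 3413 to 3969 low genes and 8387 to 11341 genes above the olfactory reference. It gave median percentiles of 64.1 to 66.4 for hepatocyte, 53.6 to 65.8 for fetal, 80.9 to 81.7 for cancer and 31.7 to 34.5 for other cell lists, so the fetal class rests most on 1 array, replicate 2. Leaving out replicate 2 moved list medians by up to 10.7 percentile points (insulin-like growth factor system, 64.3 to 53.6). It left 32 of 41 within the SD of the medians of the 3 arrays. That SD includes replicate 2, so the count does not show that a list holds without that array. Progenitor and biliary genes moved from 59.7 to 52.3 and counted as within it (SD 10.2). Liver transcription factors moved from 78.1 to 75.0 and did not (SD 0.156). Quantile normalization moved the list medians by up to 2.5 points. Of the 41 lists, antigen presentation crossed the median of all genes, at 48.3 without replicate 1. Using any promoter of a gene, an alternative chosen after seeing the data, or 1 strand or the upstream part only, left 40 of the motif shares close to their value and moved 14. Low signals cannot be told from background here. No paired analysis was possible because the 3 arrays form 1 group and no test was made.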
